A study of Citrullus lanatus with 26 samples.

Results

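The small RNAs described here are 57 novel_miR names of watermelon (Citrullus lanatus) fruit flesh that stood lower at 30 DAP than at 0 DAP. The tables list 179 novel_miR names and 29 names of known families. DAP is the unit of fruit age in the labels. The 57 were chosen from the counts themselves. CPM, a count relative to its library's listed total, were averaged over the 3 libraries of an age. D was the log2 ratio of CPM + 5 at 30 DAP over 0 DAP, minus the median of that ratio over all names listed. A novel_miR name with D at or below -0.6 is a member, apart from 8 that the rule leaves out by number (novel_miR_15, novel_miR_51, novel_miR_13, novel_miR_100, novel_miR_19, novel_miR_165, novel_miR_27 and novel_miR_109). The libraries come from flesh of the cultivar 97103 (subspecies vulgaris), at 0, 1, 5, 10, 20 and 30 DAP, with 3 libraries per age and no treatment. 97103 is an inbred dessert watermelon whose genome has served as a reference for the species. Nothing in the labels ties the 3 libraries of an age to separate fruits or plants, so a p-value here rests on a spread that may be technical. The miRNA names hold no defining marker of flesh against which the tissue label could be checked.

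Plant miRNAs are short RNAs cut from hairpin precursors by a Dicer-like enzyme and loaded into an ARGONAUTE protein, which then cuts or represses messenger RNAs with a nearly complementary site. Conserved families carry a number shared between species, and many of them act on transcription factors that set organ growth. A novel_miR name is given to small RNAs that match no such family, and a species can hold many of them at modest levels. Watermelon flesh passes from cell division through expansion to ripening, when sugars and red carotenoids build up. The tables give the novel_miR names with a number alone, so no sequence, target or gene position is attached to any of them here, and no role is given.

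Because the libraries at 0 and 30 DAP chose the members, nothing about the contrast between those ages is tested. The 12 libraries at 1, 5, 10 and 20 DAP took no part in the choice, and all tests use them alone, apart from an alternative fit of all 18 libraries that is named where it is given. The 18 libraries held 62050 to 153755 counts, with 62050 to 107910 at 20 DAP against 120511 to 151937 at 1 DAP. All 57 members passed the filter on low counts, among 203 names tested. The lowest count of a member in these 12 libraries was 2. Replicate 2 at 1 DAP stood apart, with Spearman correlations of 0.959 and 0.942 to the other libraries of that age, which correlated at 0.994 with each other, so counts are also given without it.

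Together the 57 members took a smaller mean share of the counts at each later age, with overlapping libraries at 0 and 1 DAP. They held 21.6% to 25.9% of a library's counts at 0 DAP, 20.2% to 24.5% at 1 DAP, 13.2% to 13.4% at 5 DAP, 10.5% to 12.7% at 10 DAP, 7.21% to 7.82% at 20 DAP and 3.66% to 4.50% at 30 DAP. No library at 5 DAP or later overlapped any library at 0 or 1 DAP. The libraries at 0 and 30 DAP chose the members, so a lower mean share at 30 than at 0 DAP follows from the rule. The shares at these 2 ages are a description only. The 95% Wilson interval of a share reached at most 0.279 percentage points to either side and covers counting error only. With near-identical names counted once the mean share was 3.57% at 30 DAP, against 20.7% at 0 DAP. A share is relative and also falls when other names take more of the counts. The 114 novel_miR names neither in the list nor left out by number took a mean 41.8% at 0 DAP and 75.9% at 30 DAP. Names of known families took 26.3% and 20.1%, and the 8 left out 8.29% and 0.00196%. In bulk flesh, fewer cells holding a miRNA, less of it per cell and a rise of other names cannot be told apart by a share.

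**Figure D1:**
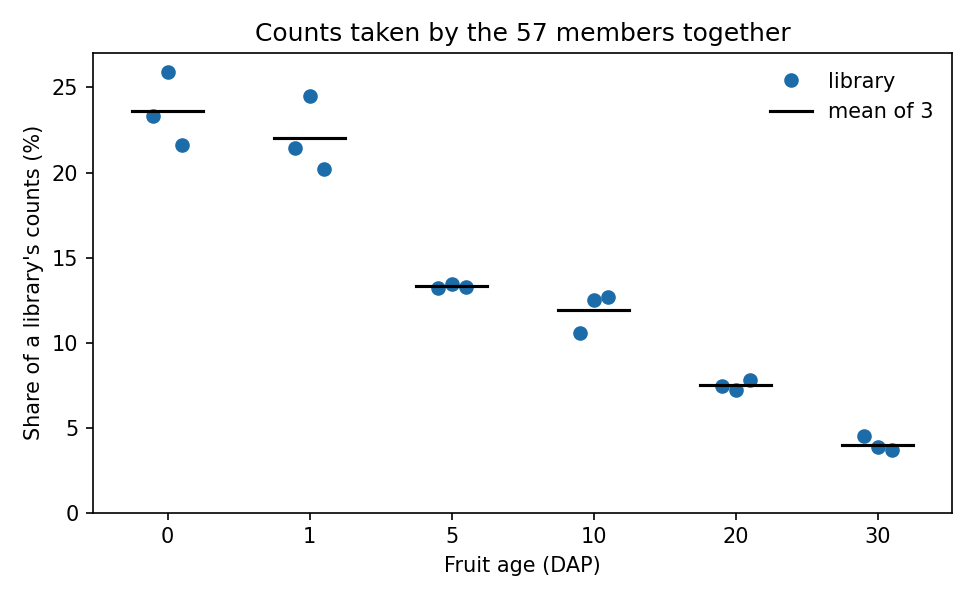
Share of each library's listed counts taken by the 57 members together, in percent, by fruit age in DAP. Points are libraries and bars the mean of 3; the points at 20 DAP lie between 7.21% and 7.82%, below every point at 1 DAP.

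The members spanned a wide range of levels and of D. On the scale used for levels below, CPM with TMM factors (trimmed-mean scaling over the 18 libraries), the mean of a member at 30 DAP lay between 70.4 and 6386, with a median of 659. At 0 DAP it lay between 244 and 22601, with a median of 2131. D ran from -4.43 to -0.60 with a median of -1.47. Just inside the threshold stood novel_miR_62 at -0.63, novel_miR_107 at -0.61 and novel_miR_111 at -0.60, and just outside it novel_miR_72 at -0.59, novel_miR_81 at -0.58 and novel_miR_150 at -0.57, so no gap marks the edge of the list. At 30 DAP 56 of 57 members lay below 0 DAP with no overlap of the 3 and 3 libraries, beside 41.8% of all names lower and 32.7% higher. The member with overlap was novel_miR_179. The choice of members used the means of these same libraries and favours such a count without fixing it, so the count is a description only. Lower here means lower relative to other names: before the median was subtracted, the median log2 ratio of all names was -1.03.

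**Figure D2:**
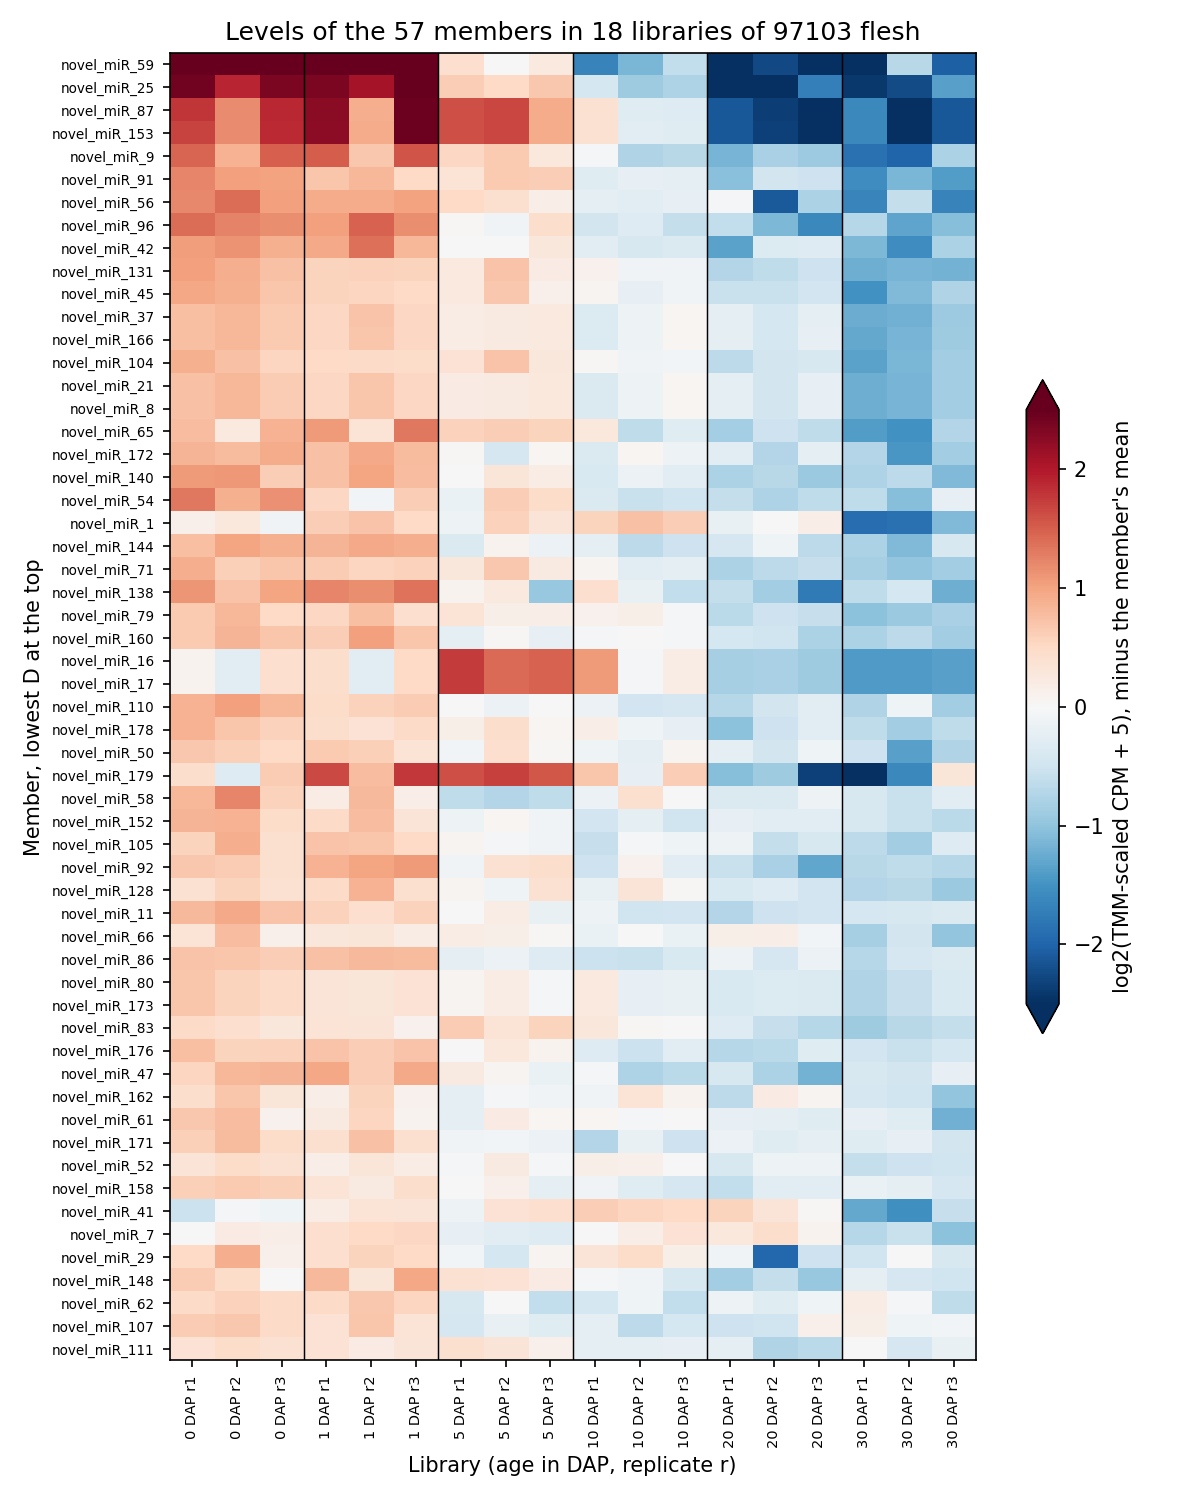
Level of each member in each library, as log2(TMM-scaled CPM + 5) minus the member's mean over the 18 libraries, with the colour scale capped at -2.5 and 2.5. Members run down the page from the lowest D (-4.43) to the highest (-0.60) and libraries run left to right by age in DAP; most rows pass from above to below their mean between 1 and 20 DAP, while novel_miR_16 and novel_miR_17 are highest at 5 DAP.

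In libraries whose counts did not enter D, the members were lower at 20 DAP than at 1 DAP almost throughout. Of 57 members 53 fell, none rose and 4 were not called, where a call is an adjusted p under 0.05 in edgeR's quasi-likelihood test over all 203 names. Over all names tested 37.9% were called lower and 35.5% higher. The median log2 fold change of the members was -1.01, beside -0.11 for all names, and 56 of 57 members had a negative value. None of the members was called higher by DESeq2 either, and none had a positive change at an unadjusted p under 0.05 by either tool. A change of any kind among the 4 ages was called in 54 members, beside 82.3% of all names tested. Without replicate 2 at 1 DAP 49 members fell, with no share of all names given for that fit. The 4 calls lost were novel_miR_1, novel_miR_52, novel_miR_58 and novel_miR_61.

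The deepest falls were shared by a small set of names. novel_miR_59, with the lowest D, had 30.5, 44.6 and 35 CPM at 20 DAP, against 1524, 1599 and 1432 at 1 DAP. Its libraries at 20 DAP together held 8 counts, against 750 at 1 DAP, and its log2 fold change was -5.32 (SE 0.31, edgeR adjusted p = 1.17e-08). novel_miR_25 had 71.2, 89.2 and 175 CPM at 20 DAP, against 3004, 2506 and 3498 at 1 DAP, with a change of -4.78 (SE 0.26, edgeR adjusted p = 1.17e-08). Neither name had overlapping libraries at these ages, and novel_miR_25 held 23 counts at 20 DAP, against 1462 at 1 DAP. novel_miR_87 had 122, 104 and 87.6 CPM at 20 DAP, against 2631, 1041 and 3020.4 at 1 DAP, with a change of -4.32 (SE 0.48, edgeR adjusted p = 6.32e-06). Its low value at 1 DAP is replicate 2, and without that library the change was -4.61. novel_miR_153 is nearly a copy of novel_miR_87, with equal counts in 10 of 18 libraries and a gap of at most 19 counts in the others, and its change was -4.32 (SE 0.48).

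Next in size came novel_miR_179 and novel_miR_9. novel_miR_179 had 91.5, 104 and 35 CPM at 20 DAP, against 629, 337 and 684 at 1 DAP, a change of -2.71 (SE 0.42, edgeR adjusted p = 9.39e-05). It rested on 18 counts at 20 DAP, and it is the 1 member with a library at 0 counts, at 30 DAP. novel_miR_9 had 1302, 1665 and 1559 CPM at 20 DAP, against 8377, 4628 and 8691 at 1 DAP, a change of -2.24 (SE 0.26, edgeR adjusted p = 7.92e-06). Both were lowest at 1 DAP in replicate 2, and neither had overlapping libraries.

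The most abundant members fell less steeply. novel_miR_65 was the highest of the 57, with 7932, 10033 and 9249.5 CPM at 20 DAP, against 30269.7, 18184 and 35760.1 at 1 DAP. Its log2 fold change was -1.60 (SE 0.26, edgeR adjusted p = 0.000121), and -1.76 without replicate 2 at 1 DAP, its lowest library of that age. novel_miR_21 had 4749, 4073 and 4852 CPM at 20 DAP, against 7965, 9039.9 and 8057 at 1 DAP, with a change of -0.83 (SE 0.13, edgeR adjusted p = 0.000108). novel_miR_8 repeats novel_miR_21 in 17 of 18 libraries and differs by 1 count in the other. novel_miR_37 had 4576, 3954 and 4555 CPM at 20 DAP, against 7665, 8691 and 7644 at 1 DAP, with a change of -0.83 (SE 0.13, edgeR adjusted p = 9.59e-05). novel_miR_166 follows novel_miR_37 within 5 counts in every library, and the 4 names together lie within 60 counts of each other, though the 2 pairs are counted as separate profiles. The libraries of the 2 ages did not overlap for any of these names.

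The 3 names nearest the threshold in D were also called lower, with falls smaller than the members' median of -1.01. Small falls were not confined to that edge: novel_miR_1, with a D of -1.74, changed by -0.60 (SE 0.17). novel_miR_111 had 4627, 3196 and 3381 CPM at 20 DAP, against 6897, 6232 and 6710.4 at 1 DAP, a change of -0.77 (SE 0.16, edgeR adjusted p = 0.000767). novel_miR_107 had 498, 505 and 788 CPM at 20 DAP, against 918, 1157 and 912 at 1 DAP, a change of -0.72 (SE 0.19, edgeR adjusted p = 0.00427). novel_miR_62 had 1973, 1739 and 1997 CPM at 20 DAP, against 2992, 3436 and 3156 at 1 DAP, a change of -0.71 (SE 0.16, edgeR adjusted p = 0.00154). In each of the 3 names nearest the threshold every library at 20 DAP lay below every library at 1 DAP. At 30 DAP novel_miR_111 averaged 4730.4 ± 719 CPM, above its 3735 ± 778 CPM at 20 DAP (SD, n = 3 each), and the means of novel_miR_107 and novel_miR_62 were also higher at 30 than at 20 DAP, with overlapping libraries in all 3 names.

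The 4 members not called between 20 and 1 DAP were novel_miR_7, novel_miR_41, novel_miR_66 and novel_miR_162, named here after their values were seen. novel_miR_41 had 956, 817 and 666 CPM at 20 DAP, against 739.8, 826 and 812 at 1 DAP, a change of 0.10 (SE 0.18, edgeR adjusted p = 0.643), the 1 positive value among the members. novel_miR_7 had 2136, 2408 and 1892 CPM at 20 DAP, against 2386, 2529 and 2557 at 1 DAP, a change of -0.17 (SE 0.14, edgeR adjusted p = 0.271). The libraries of the 2 ages overlapped in both names. novel_miR_66 stood at -0.13 (SE 0.13, edgeR adjusted p = 0.377), with no overlap of its libraries, and novel_miR_162 at -0.35 (SE 0.19, edgeR adjusted p = 0.118), with overlap. These results do not show that the 4 names stayed level.

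The scaling of the libraries moves all of these values together. Without factors the median of all names between 20 and 1 DAP was -0.59, all names split into 104 lower and 38 higher (77 and 72 with TMM factors), and 56 members were called lower. Relative to the median of all names the members' median was -0.90 under TMM, under RLE and unscaled. A scaling factor shifts all names by nearly the same amount, so this likeness was fixed in advance. The median of all names also includes the members. Of the 5 phloem-mobile families listed as a mark of vascular tissue only miR2111 has a name in this set, so the list says little. cme-miR2111a lay between 596 and 788 CPM at 20 DAP, against 69.8 to 206 at 1 DAP, and its part in the members' change was not tested.

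**Figure D3:**
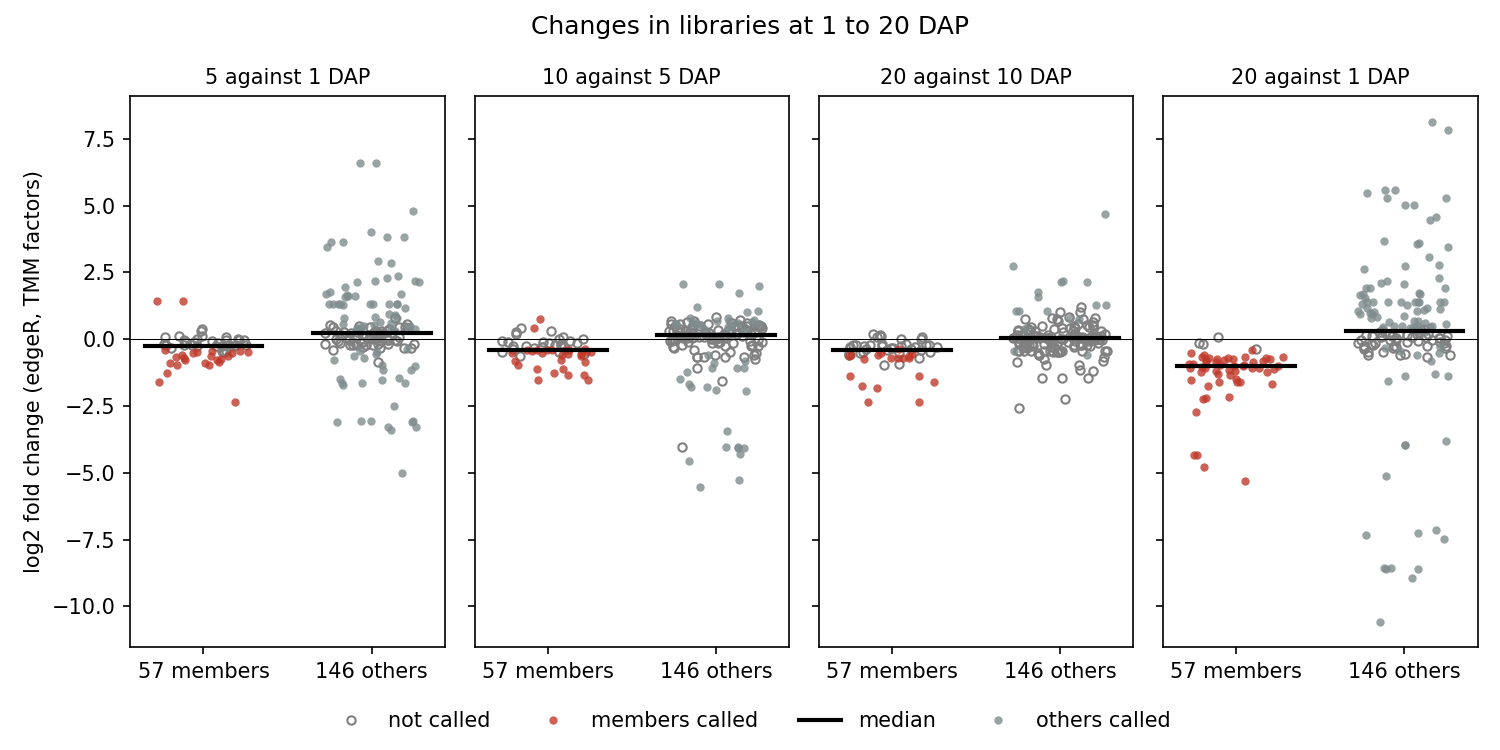
log2 fold changes by edgeR with TMM factors in the 12 libraries at 1 to 20 DAP, for the 57 members and the 146 other names tested, in 4 comparisons. Filled points were called at an adjusted p under 0.05 and bars are medians; between 20 and 1 DAP the members' median was -1.01 and that of the other names 0.31.

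Between 5 and 1 DAP 23 members fell, 2 rose and 32 were not called. Over all names tested 25.1% were called lower and 28.1% higher. The median change of the members was -0.26, beside -0.0015 for all names. The largest falls were those of novel_miR_59, novel_miR_25 and novel_miR_138. novel_miR_59 had 311, 227 and 274 CPM at 5 DAP, against 1524, 1599 and 1432 at 1 DAP, a change of -2.35 (SE 0.21, edgeR adjusted p = 1.28e-06). novel_miR_25 had 904, 826 and 940.1 CPM at 5 DAP, against 3004, 2506 and 3498 at 1 DAP, a change of -1.61 (SE 0.19, edgeR adjusted p = 1.62e-05). novel_miR_138 had 267, 296 and 126 CPM at 5 DAP, against 589.6, 564 and 648 at 1 DAP, a change of -1.25 (SE 0.31, edgeR adjusted p = 0.00573). In all 3 names the libraries of the later age lay below those of the earlier.

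novel_miR_16 went the other way between these ages. It had 2733, 2175 and 2266 CPM at 5 DAP, against 1107, 674 and 1147 at 1 DAP, a change of 1.43 (SE 0.28, edgeR adjusted p = 0.00118). It held 1008 counts at 5 DAP, against 476 at 1 DAP, and the libraries did not overlap. novel_miR_17 has the same counts in all 18 libraries, so the 2 rises are 1 measurement. Without scaling factors the median of all names moved to -0.48, all names split into 97 lower and 30 higher (51 and 57 with TMM factors), and 47 members were called lower and 2 higher. Without replicate 2 at 1 DAP 27 members fell, with no share of all names given for that fit.

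Between 10 and 5 DAP 28 members fell, 2 rose and 27 were not called. Over all names tested 24.6% were called lower and 13.3% higher. The median change was -0.40, beside -0.04 for all names. novel_miR_87 had 715, 442 and 439 CPM at 10 DAP, against 1681, 1748 and 1045 at 5 DAP, a change of -1.52 (SE 0.36, edgeR adjusted p = 0.00943), and novel_miR_153 stood at -1.52 (SE 0.36). novel_miR_59 had 68.5, 102 and 148 CPM at 10 DAP, against 311, 227 and 274 at 5 DAP, a change of -1.35 (SE 0.25, edgeR adjusted p = 0.00232). Neither novel_miR_87 nor novel_miR_59 had overlapping libraries.

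The 2 names that rose between 10 and 5 DAP were novel_miR_58 and novel_miR_7, and both had fallen between 5 and 1 DAP. novel_miR_58 had 190.2, 279 and 213 CPM at 10 DAP, against 133, 124 and 133 at 5 DAP, a change of 0.77 (SE 0.24, edgeR adjusted p = 0.0267). novel_miR_7 had 1758, 1992 and 2302 CPM at 10 DAP, against 1533, 1459 and 1424 at 5 DAP, a change of 0.42 (SE 0.14, edgeR adjusted p = 0.0284). The libraries did not overlap in either name. Both calls ended when replicate 1 or 2 at 5 DAP, or replicate 2 or 3 at 10 DAP, was left out, with edgeR adjusted p-values of 0.0510 to 0.131. The call of novel_miR_7 also ended without replicate 3 at 5 DAP (adjusted p = 0.0696) and with all 18 libraries in the fit (adjusted p = 0.0502).

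The number of members lower between 10 and 5 DAP moved with the scaling and with single libraries. It was 18 with RLE factors and 9 without factors, where all names split into 39 lower and 32 higher and into 32 lower and 51 higher (50 and 27 with TMM factors). It was 17 without replicate 2 at 1 DAP, 16, 15 and 18 without replicates 1, 2 and 3 at 5 DAP, and 15 without replicate 2 at 10 DAP. Counts over all names are not given for the fits without a library. Whether calls were lost by the members or by names in general cannot be told from these numbers.

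Between 20 and 10 DAP 19 members fell and 38 were not called. Over all names tested 10.3% were called lower and 7.39% higher. No member was called higher by edgeR or DESeq2, and a positive change at an unadjusted p under 0.05 was found in 0 members by edgeR and 1 by DESeq2. The median change was -0.40, beside -0.14 for all names. novel_miR_87 had 122, 104 and 87.6 CPM at 20 DAP, against 715, 442 and 439 at 10 DAP, a change of -2.35 (SE 0.52, edgeR adjusted p = 0.00863), and novel_miR_153 stood at -2.36 (SE 0.52). novel_miR_25 had 71.2, 89.2 and 175 CPM at 20 DAP, against 434, 313 and 342 at 10 DAP, a change of -1.84 (SE 0.30, edgeR adjusted p = 0.00118). All names split into 21 lower and 15 higher with TMM factors, 19 and 21 with RLE factors, and 58 and 13 without factors, where 37 members were called lower. Without replicate 2 at 10 DAP 11 members fell, with no share of all names given for that fit.

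Few members were called lower in every one of these 3 steps. They were novel_miR_25, novel_miR_59 and novel_miR_140, the last with changes of -0.53, -0.46 and -0.61 from the earliest step to the latest. A further 18 members were called lower in 2 steps, 25 in 1 step and 11 in none. Of all names tested 3 were called lower in 3 steps, 30 in 2 steps, 53 in 1 step and 117 in none. Of the 11 with no call in a single step, 8 were called lower over the whole span from 1 to 20 DAP. A call in 1 step and not in the next does not show that the steps differ, which was not tested.

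The members followed more than one course over the 6 ages. The highest mean lay at 0 DAP in 34 members, at 1 DAP in 17, at 5 DAP in 4 and at 10 DAP in 2, and at 20 or 30 DAP in none. In 20 members the mean was lower at each age than at the age before. A mean at or under 50% of the 0 DAP mean was first reached at 5 DAP by 6 members, at 10 DAP by 15, at 20 DAP by 19 and at 30 DAP by 11. The other 6 stayed above 50% at every age on the TMM scale, and 4 that had been at or under it earlier were above it again at 30 DAP, 10 members in all. The highest means, the steady falls and these shares all use the ages that chose the members. A highest mean at 30 DAP was in effect kept out by the rule, and one at 0 DAP was favoured. All these counts are given as a description, with no count over all names beside them.

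novel_miR_16 and novel_miR_17 had a peak in young fruit. The name averaged 871 ± 211 CPM at 0 DAP, 976 ± 262 at 1 DAP, 2391 ± 299.7 at 5 DAP, 1139 ± 501 at 10 DAP, 452 ± 12.4 at 20 DAP and 306 ± 7.09 at 30 DAP (SD, n = 3 each). Replicate 1 at 10 DAP, with 1712 CPM, lay above the other libraries of that age. Between 20 and 1 DAP the change was -1.06 (SE 0.32, edgeR adjusted p = 0.00847), so the rise at 5 DAP was followed by a level below the starting one.

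novel_miR_1 and novel_miR_41 had their highest mean at 10 DAP and their lowest at 30 DAP. novel_miR_1 averaged 654 ± 82.9, 932 ± 69, 741 ± 177, 949 ± 58.8, 607 ± 77.2 and 199.7 ± 68.4 CPM from 0 to 30 DAP (SD, n = 3 each). novel_miR_41 averaged 559 ± 99.6, 792 ± 46.1, 767 ± 152, 957 ± 42.4, 813 ± 145 and 307 ± 113 CPM over the same ages. In both names the libraries at 30 DAP lay below all libraries of every other age. novel_miR_7 averaged 1053 ± 172 CPM at 30 DAP, against 2145 ± 258 CPM at 20 DAP, and its libraries at 30 DAP were also its lowest.

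**Figure D4:**
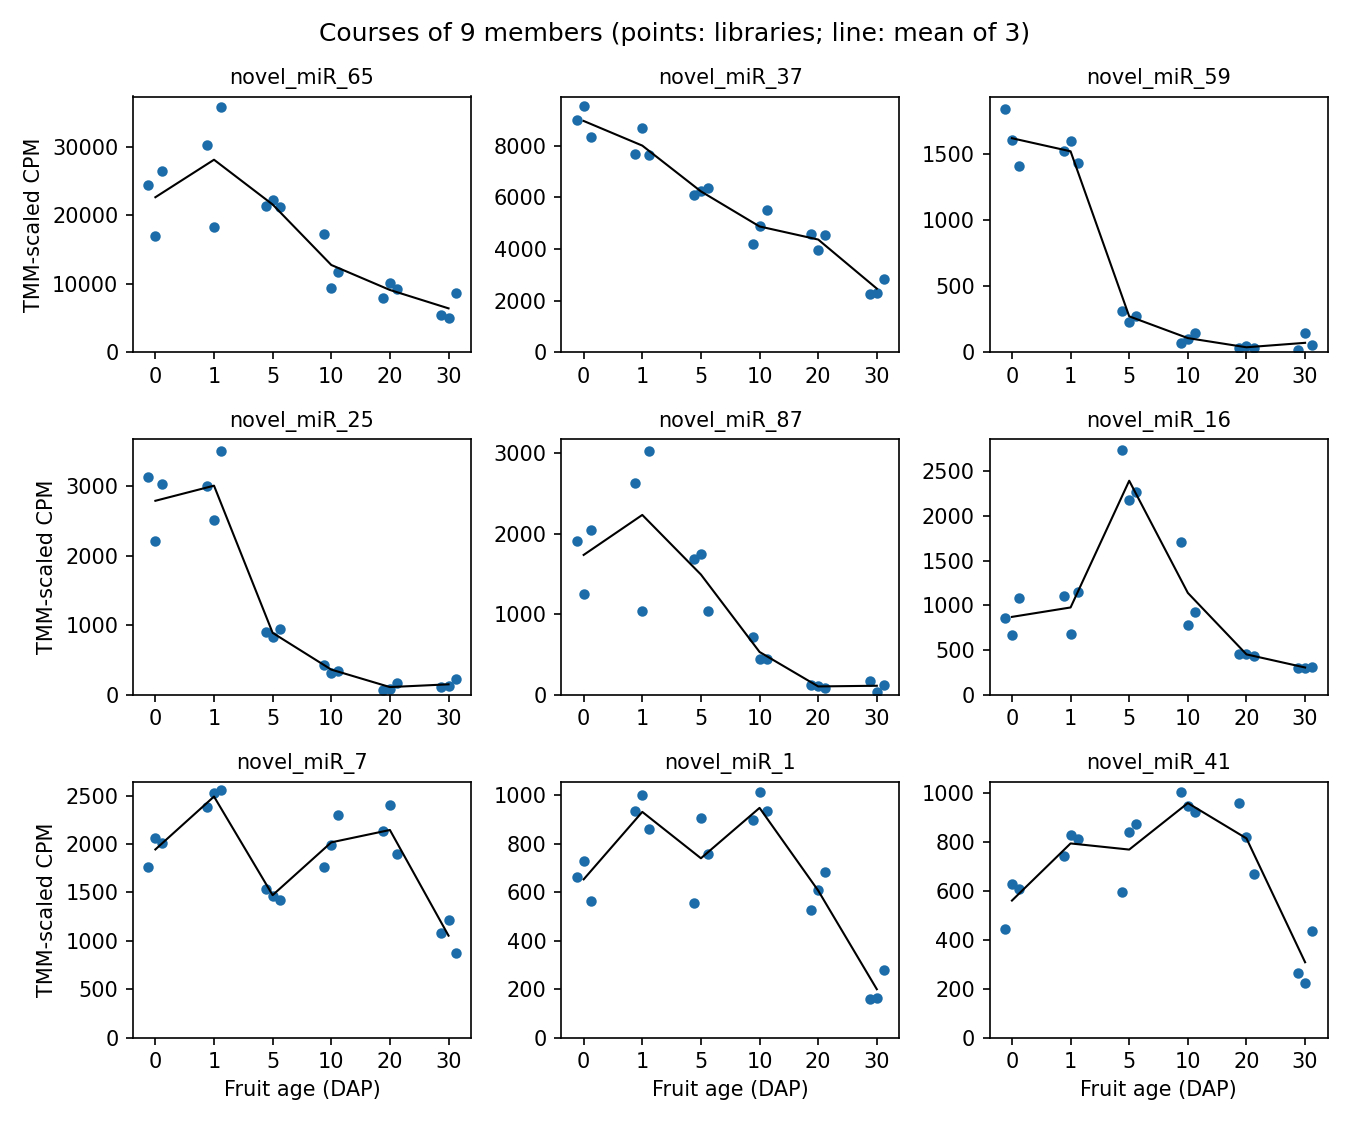
TMM-scaled CPM of 9 members by fruit age in DAP, with points for libraries and a line through the means of 3; each panel has its own axis from 0. novel_miR_59 and novel_miR_25 dropped between 1 and 5 DAP, novel_miR_16 peaked at 5 DAP at 2391 CPM, and novel_miR_1 and novel_miR_41 were low at 30 DAP.

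The outermost steps each share an age with the choice of members and are given without a test. Between 1 and 0 DAP the median log2 difference of the members was -0.10, beside 0.06 for all names, with 35 members negative. The libraries did not overlap in 13 members that were lower at 1 DAP, beside 9.62% of all names, and in 7 that were higher, beside 13.5%. The largest differences were 1.16 in novel_miR_179, with 629, 337 and 684 CPM at 1 DAP, against 267, 155 and 309 at 0 DAP, and -0.75 in novel_miR_54, with 551, 366 and 591 CPM at 1 DAP, against 972, 716 and 856 at 0 DAP. These names were picked by size.

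Between 30 and 20 DAP the median difference of the members was -0.24, beside -0.03 for all names, with 39 of 57 negative. The libraries did not overlap in 22 members that were lower at 30 DAP, beside 17.8% of all names, and in 2 that were higher, beside 15.9%. The lowest values were -1.58 in novel_miR_1, -1.39 in novel_miR_41 and -1.02 in novel_miR_7. The highest was 0.85 in novel_miR_59, which had 17.6, 141 and 52.3 CPM at 30 DAP, against 30.5, 44.6 and 35 at 20 DAP. Its libraries overlapped, and it held 11 counts at 30 DAP, against 8 at 20 DAP.

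The 57 names are fewer separate measurements than they appear. Joining names that never differed by more than 0.1 in log2(count + 1) in any of the 18 libraries left 53 profiles. The joined pairs were novel_miR_16 with novel_miR_17, novel_miR_80 with novel_miR_173, novel_miR_21 with novel_miR_8, and novel_miR_37 with novel_miR_166. novel_miR_80 had 1678, 1709 and 1682 CPM at 20 DAP, against 2737, 2668 and 2792 at 1 DAP, a change of -0.65 (SE 0.13, edgeR adjusted p = 0.000684), and novel_miR_173 repeats it in all 18 libraries. No profile joined a member to a name outside the list. The treatment of reads that fit more than one name is not given in the sources used here.

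Other groups of names in the same libraries had other counts. Between 20 and 1 DAP all 8 novel_miR names left out by number were called lower, with a median of -8.58. Of the other 114 novel_miR names tested 7 were called lower and 67 higher, with a median of 0.50. Among 24 known-family names tested, 9 were called lower and 5 higher, with a median of -0.57. Between 5 and 1 DAP 23 of 57 members were called lower, beside 8 of the 8 names left out, 7 of the 114 and 13 of the 24. Between 10 and 5 DAP 28 members were called lower, beside 8 of the 8, 6 of the 114 and 8 of the 24. Between 20 and 10 DAP 19 members were called lower, beside 0 of the 8, 2 of the 114 and 0 of the 24. The 8 names left out then held 41 counts together at 20 DAP, against 94 at 10 DAP, and counts this low limit what could be called. The differences between these sets were not tested.

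Of the names of known families, cme-miR172b had the lowest difference from the median member course, close to that of cme-miR167b. The measure was the mean absolute difference of the log2 courses over 6 ages, each centred and with the ages that chose the members included, and was 0.25 for cme-miR172b, 0.28 for cme-miR167b and 0.31 for cme-miR167c. The miR172 family acts on AP2-like transcription factors and miR167 on auxin response factors. cme-miR172b averaged 1186 ± 168 CPM at 0 DAP, 1292 ± 534 at 1 DAP, 1634 ± 301 at 5 DAP and 481 ± 171 at 30 DAP. Its mean was highest at 5 DAP, where 53 of 57 members had a lower mean than at 1 DAP. cme-miR167b averaged 2391 ± 513 CPM at 0 DAP, 3021 ± 1346 at 1 DAP, 1372 ± 97.8 at 5 DAP and 969.9 ± 699 at 30 DAP (SD, n = 3 each).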

How the data were processed

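Small RNA was measured in 18 libraries of 97103 flesh. Per the labels' protocols, RNA was extracted with Trizol, the small fraction was cut from a gel, and libraries followed Illumina protocols. Both fastp and BWA appear in the submitters' processing notes, with no version. The miRNA reference, the build and how reads were counted were not stated in the sources read. The deposited tables hold whole-number counts per name, 1 library each, with no normalization. The 8 libraries of a genotype comparison were not used, since their novel_mir numbers were not taken as the same molecules.

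Members and lists were chosen with earlier results of these data known. Counts were fitted with edgeR 4.0.16 in R 4.3.3: filterByExpr at a minimum count of 10, TMM factors, 12 libraries in 1 fit with no covariate, quasi-likelihood F tests of 20 against 1 DAP, of each step and of any change, and Benjamini-Hochberg adjustment over 203 names. SE is the size of the log2 fold change divided by the square root of F. Levels use TMM factors of all 18 libraries, so their ratios differ slightly from the fitted changes. The smallest exact permutation p for 3 against 3 libraries is 0.1, so none was used. The fit was also run on simulated counts with 60 names changed, 1 spread for all names and no library standing apart. Those settings differ from these data, so that run is not used as support here.

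Members named are the 6 most abundant, the 6 deepest falls, the largest calls of each step in each direction, copies, and those at either end of D. Alternatives were RLE factors, no factors, no filter, a minimum count of 50, DESeq2 1.42.0, all 18 libraries, a replicate block, 1 name per profile and leaving out each library. No 2 replicates differed by less than sampling noise. Intervals cover counting error only, since the labels name no molecular identifiers.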

Additional observations from a re-analysis of the deposited data

How the results depend on the processing

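Members lower between 20 and 1 DAP numbered 48 to 56 under each setting run and 49 to 53 when single libraries were left out, and no member was called higher; 49 members were called lower in every fit other than that with 1 name per profile, which was not compared. Members lower between 5 and 1 DAP numbered 47 without factors and 18 to 29 with single libraries left out, and 2 to 3 were then higher. Those lower between 10 and 5 DAP numbered 18 with RLE factors, 9 without factors, 18 with the stricter filter, and 15 to 28 with single libraries left out. Those higher in that step numbered 4 without factors, 1 with the stricter filter, 1 with all 18 libraries in the fit, and 0 to 2 with single libraries left out. Those lower between 20 and 10 DAP numbered 37 without factors and 11 to 22 with single libraries left out. Leaving out single libraries, any change was called in 52 to 54 members. No counts over all names are given beside these numbers, so a general shift cannot be told from one of the members. The cause of these shifts was not tested. novel_miR_41 between 20 and 1 DAP changed sign, at -0.39 without factors and -0.093 without replicate 1 at 20 DAP, within a range of -0.093 to 0.236 over single libraries left out. Of 694 values of named members under an alternative, 679 kept their direction and side of the threshold, 10 lost and 3 gained a call.

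Deviations of libraries with the same replicate number correlated at -0.33 to 0.71 over 18 pairs. Only 5 pairs were over 0.1, the highest being 1 with 10 DAP in replicates 1 (0.63) and 2 (0.71), and 6 of 12 libraries matched their own number best, so the numbers were not taken to pair the libraries. With the replicate block 53, 23, 27 and 18 members were lower between 20 and 1, 5 and 1, 10 and 5, and 20 and 10 DAP, with 3 higher between 5 and 1 DAP and 2 between 10 and 5 DAP, and any change was called in 53. Counts over all names are not given for the replicate block. The list itself held 53 to 60 names when a library at 0 or 30 DAP was left out, and 56 or 57 with another pseudocount, TMM-scaled CPM or pooled counts. Few counts at 20 and 30 DAP limit the precision of the deepest falls.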

Other observations

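Several members differed between libraries of the same age. In replicate 2 at 1 DAP 8 members lay under 70% of the lower of the other libraries: novel_miR_9, novel_miR_16, novel_miR_17, novel_miR_54, novel_miR_65, novel_miR_87, novel_miR_153 and novel_miR_179. These include the identical novel_miR_16 and novel_miR_17 and the near-copies novel_miR_87 and novel_miR_153. Of all names tested 25.6% met that limit in the same library. Names of known families took 20.0% of the counts of that library, against 31.6% and 34.8% in the others of its age. In replicate 2 at 0 DAP 5 members met the same limit, beside 12.8% of all names tested, and all 5 are among the 8, with known families at 21.9%, against 27.8% and 29.1%. In replicate 1 at 10 DAP 8 members stood above the others by the same margin, beside 22.2% of all names tested, 6 of them among the first 8, with known families at 31.0%, against 22.3% and 24.9%. In the remaining libraries at most 4 members were low and at most 6 high by these limits, and the share of all names was not taken there. The 6 were in replicate 3 at 30 DAP, which helped choose the members and had 3 low. Its Spearman correlations were 0.961 and 0.955, against 0.982 between the others of its age, with known families at 22.4%, against 18.9% in each. These libraries and the limit were chosen after the values were seen, and the cause was not tested.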
